A study of Homo sapiens with 38 samples.

Results

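The genes described here are textbook transcriptional targets of the tumour suppressor p53: CDKN1A, GADD45A, TP53INP1, MDM2, FAS, RRM2B, BTG2, ZMAT3, TP53I3 and XPC. They were chosen by name, and a gene was measured by the probe sets annotated to its symbol alone. Of the 10 genes, 9 were analysed among 11456 genes tested, and BTG2, which was not matched to a probe set, was not analysed here. The probe sets that stand for the genes were 202284_s_at for CDKN1A, 203725_at for GADD45A, 225912_at for TP53INP1, 229711_s_at for MDM2, 204780_s_at for FAS, 223342_at for RRM2B, 228315_at for ZMAT3, 210609_s_at for TP53I3 and 209375_at for XPC.

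Messenger RNA of cultured cells was read on 38 arrays of the Affymetrix U133 Plus 2.0 type, 26 of treated cells and 12 of untreated controls, in a study of how mitochondria shape the stress response of tumour cells deprived of glucose. HT-1080 is a human fibrosarcoma line known to carry wild-type p53, HT-29 is a human colorectal adenocarcinoma line that carries mutant p53, and rho0 cells are derivatives of either line that are deficient in mitochondrial DNA (mtDNA). The stresses were 2-deoxyglucose (2DG), a glucose analogue that blocks glycolysis and disturbs protein glycosylation; glucose starvation (GS); and tunicamycin (TM), which blocks N-glycosylation in the endoplasmic reticulum. The added compounds were the biguanides metformin (Met) at 10 mM, buformin (Bu) at 300 µM and phenformin (Phen) at 100 µM, rotenone (Rot, 100 nM) and antimycin A (AA, 10 ng/ml), which block complexes of the respiratory chain, and versipelostatin (VST, 3 µM).

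The HT-1080 rho0 arrays were 1 each of 2DG, GS and TM, with 2 controls. Parental HT-1080 had 1 array each of 2DG with Met, Bu, Phen, Rot, AA and VST, 1 each of GS with Rot, Rot_S, AA_S and VST, where S marks cultures that include floating cells, and 1 each of TM with Rot and with AA. It had 3 arrays of 2DG alone, 2 of GS alone, 1 of TM alone and 6 controls. The rho0 GS array of HT-1080 also included floating cells. HT-29 had 1 array of GS in rho0 cells, 1 of GS with VST and 3 of GS alone, with 1 rho0 control and 3 parental controls. Exposure lasted 18 h, except 14 h for the HT-29 rho0 GS array and the third HT-29 GS array, because rho0 HT-29 cells were badly damaged by the longer exposure. The doses of 2DG and TM, the way rho0 cells were made and whether each derivative is 1 clone are not given in the sources used here. Every compound was given together with a stress.

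p53 is a transcription factor that is kept scarce in unstressed cells because MDM2, itself a p53 target, marks it for destruction. DNA damage and other stresses release p53, which then binds response elements made of paired decamers and raises genes of cell cycle arrest, DNA repair and cell death. Mutant p53 of the kind found in many colorectal tumours has largely lost this DNA binding, and several of these targets, CDKN1A and GADD45A among them, are also known to be switched on by stress signals that do not need p53.

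RefSeq promoter windows of the GRCh38.p14 build, running from 250 bases before to 50 bases after each annotated start, were available for 7 of the 10 genes. They were searched for the p53 response element, a run of 20 bases made of 2 adjacent decamers whose consensus equals its own reverse complement, so that each match covers both strands. With up to 2 mismatches, a limit set after seeing the data, a match lay in a window of FAS and of MDM2. Of 35116 windows of the same length, 0.649% held such a match, and of 27305 genes, 0.820% had one in a window. Both are shown with 20 bases on either side because these genes carry the rho0 and the probe set results below. The capitals mark the 20 bases of the match on the plus strand, of which 2 in each differ from the consensus. The first lies at chr10:88991289-88991348 and begins 122 bases before the most downstream of 3 annotated starts of FAS, after the other 2, whose windows held no match. The second lies at chr12:68808903-68808962 and begins 94 bases before an annotated start of MDM2. No arrays measured binding to either.
FAS: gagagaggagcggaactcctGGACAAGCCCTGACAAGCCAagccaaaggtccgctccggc
MDM2: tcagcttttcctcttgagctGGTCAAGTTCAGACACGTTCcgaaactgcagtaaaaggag

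Values below are MAS5 signals, with each array brought to a common 2% trimmed mean of 114, and changes are log2 differences from limma with its standard error (SE) and a Benjamini-Hochberg p adjusted over all genes. A gene rose or fell only where this p was under 0.05. The labels checked out against the data: the mtDNA-encoded COX1 had signals of 0.285 to 1.52 on HT-1080 rho0 arrays and 4027 to 14838 on parental ones, and 0.301 to 0.727 on HT-29 rho0 arrays and 8666 to 13016 on parental ones. Likewise, the epithelial EPCAM was at 4651 to 7623 on parental HT-29 arrays and 0.235 to 12.1 on parental HT-1080 arrays. Of the mesenchymal markers, SPARC separated the lines and S100A4 and TAGLN ran the other way. Before scaling, the trimmed mean was 89.5 to 102 on the 11 arrays where a compound joined 2DG or GS, 90.2 to 96.3 on the 3 rho0 arrays given either stress, 122 to 131 on the 9 parental arrays with a stress alone, 110 to 117 on the 3 rho0 controls and 124 to 136 on the 9 parental controls. Each call that keeping the deposited scaling or quantile normalization changed is given with its result, and the part of this difference in the results was not tested otherwise. The number of arrays limits the precision, the labels do not say that cultures were independent, so the p-values reflect the spread among these arrays, which may be technical, and in RNA from whole cultures a change in every cell and a change in a share of the cells cannot be told apart.

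Untreated HT-1080 rho0 cells had higher signals of the p53 targets than untreated parental cells. RRM2B, FAS, TP53INP1, ZMAT3, GADD45A, MDM2 and XPC rose, by 1.54-fold to 3.43-fold, and CDKN1A and TP53I3 were not past the threshold. On both rho0 controls, every one of the 9 genes stood above all 6 parental controls. The same was true of 17.0% of all genes, and 6.15% of all genes passed the test in the higher direction. The median log2 difference was 1.15 over the 9 genes and 0.02 over all genes.

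Among the genes of cell cycle arrest, CDKN1A, the cyclin-dependent kinase inhibitor p21, had signals of 485 and 482 on the HT-1080 rho0 controls, against a lowest of 282, a median of 337 and a highest of 448 on the HT-1080 controls. Its groups did not overlap, but its log2 difference of 0.50 (SE 0.35, adjusted p = 0.396) was not past the threshold. GADD45A, a stress protein of growth arrest and repair, had 2341 and 1902 on the rho0 controls, against 780.2, 951 and 1123 as the lowest, median and highest of the controls. It rose by 1.15 (SE 0.20, adjusted p = 0.00218), and its lower rho0 array lay well above the highest parental one.

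For repair and nucleotide supply, RRM2B, the p53-inducible subunit of ribonucleotide reductase that makes DNA precursors outside S phase, had 763 and 900.0 on the rho0 controls, against a lowest of 179.6, a median of 244 and a highest of 305 on the controls. Its log2 difference was 1.76 (SE 0.19, adjusted p = 8.79e-05), the smallest p among the 9 genes. XPC, which recognises damage for nucleotide excision repair, had 572 and 492 on the rho0 controls, against 302, 351 and 374 as the lowest, median and highest of the controls. It rose by 0.63 (SE 0.17, adjusted p = 0.0251), the smallest of the 7 rises, and with the deposited scaling kept its difference of 0.45 was no longer past the threshold.

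Among the genes of cell death, FAS, the death receptor CD95, had 1656 and 1415 on the rho0 controls, against a lowest of 370.0, a median of 442 and a highest of 561 on the controls. It rose by 1.78 (SE 0.35, adjusted p = 0.00458), or 3.43-fold, and its other 3 probe sets with measurable signal rose by 1.70 to 1.90. TP53INP1, which promotes p53-dependent death and autophagy, had 162 and 149.9 on the rho0 controls, against 38.5, 53.6 and 73.0 as the lowest, median and highest of the controls, and rose by 1.42 (SE 0.29, adjusted p = 0.00590). TP53I3, a quinone oxidoreductase linked to oxidative stress, had 592 and 510.3 on the rho0 controls, against 365, 393 and 423 on the controls. Its difference of 0.48 (SE 0.15, adjusted p = 0.0506) lay just short of the threshold.

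MDM2, the ubiquitin ligase that restrains p53, had 884 and 1134 on the rho0 controls, against a lowest of 355, a median of 593 and a highest of 649 on the controls, and rose by 0.85 (SE 0.21, adjusted p = 0.0186). ZMAT3, an RNA-binding zinc finger protein, had 887 and 1085 on the rho0 controls, against 284, 449 and 546 as the lowest, median and highest of the controls. It rose by 1.17 (SE 0.23, adjusted p = 0.00464), and each of its 5 probe sets passed the test with differences of 1.02 to 1.54. The calls rest on both rho0 controls. With either left out, which leaves 1 array in that group, most of the calls were lost. The genes that lost them had differences of 0.52 to 1.89. With HT-1080 controls fitted alone, CDKN1A (adjusted p = 0.0489) and TP53I3 (adjusted p = 0.0157) passed as well, and TP53I3 also with quantile normalization (adjusted p = 0.0425). The calls over all genes in these fits are not given here, so these gains cannot be set against them.

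**Figure D1:**
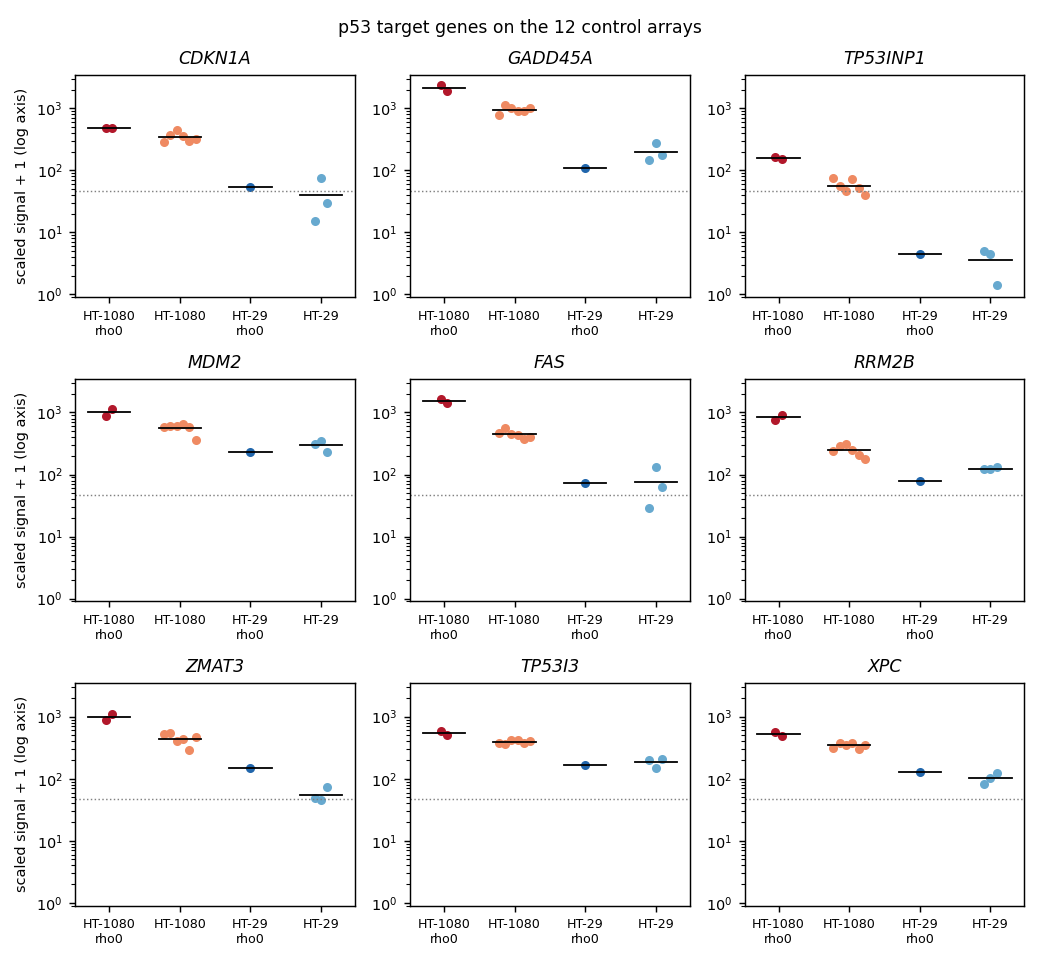
Scaled MAS5 signal plus 1 (log axis) of each p53 target on the 12 control arrays, 1 point per array, with a bar at the group mean and a dotted line at the signal of 45.5 used in the filter. In each of the 9 panels the 2 HT-1080 rho0 points lie above all 6 HT-1080 points, and the 3 HT-29 points lie below all 6 HT-1080 points.

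Other p53 targets moved with them in part. Of 26 further targets listed, 23 were measured, and 8 of these rose and 0 fell in rho0 controls, with a median log2 difference of 0.51. They included GDF15, a secreted stress cytokine (1.71, SE 0.35, adjusted p = 0.00573), BAX, which permeabilises mitochondria (1.11, SE 0.27, adjusted p = 0.0159), PHLDA3, an inhibitor of AKT (1.10, SE 0.21, adjusted p = 0.00342), and PERP, a desmosome and death protein (0.92, SE 0.10, adjusted p = 8.79e-05). CCNG1, SESN1, DDB2 and ASCC3 made up the rest. Among 11 measured relatives of p53 and its regulators, 0 rose and 1 fell, the damage kinase ATR by 0.52. MDM4, the partner of MDM2, differed by -0.02 (SE 0.16, adjusted p = 0.963). Of 10 measured paralogs of the 10 genes, GADD45B rose by 0.74 and TOB1, a relative of BTG2, fell by 0.79.

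HT-29 had a single rho0 control. ZMAT3 was the only one of the 9 genes that passed the test there, and CDKN1A had a difference of 0.65 (SE 0.50, adjusted p = 0.475), while 7.97% of all genes passed. The signal of ZMAT3 was 148 on the rho0 control, against 47.1, 44.7 and 72.2 on the HT-29 controls, a log2 difference of 1.38 (SE 0.33, adjusted p = 0.0218), which was lost with quantile normalization and when only HT-29 arrays were fitted. GADD45A was at 110.1 on the HT-29 rho0 control, against 145, 271 and 178 on the HT-29 controls, and RRM2B was at 77.2, against 121, 121 and 131. Neither passed the test (-0.77, SE 0.28, adjusted p = 0.113, for GADD45A and -0.65, SE 0.27, adjusted p = 0.162, for RRM2B). GADD45A passed with the deposited scaling kept (-0.98, adjusted p = 0.0369). The lone array was assumed to vary like the other controls.

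The rho0 difference in HT-1080 minus that in HT-29, a comparison added after seeing the data, passed the test for RRM2B (2.40, SE 0.33, adjusted p = 0.00232) and GADD45A (1.92, SE 0.34, adjusted p = 0.00828), 2 of 9 genes where 5.61% of all genes passed. FAS (1.58, SE 0.61, adjusted p = 0.145), TP53INP1 (1.26, SE 0.50, adjusted p = 0.165) and MDM2 (1.17, SE 0.37, adjusted p = 0.0798) had differences above 1 that did not pass. CDKN1A and ZMAT3 had -0.15 (SE 0.61) and -0.21 (SE 0.40). The HT-29 arm holds 1 rho0 array, whose spread was taken from the other controls, so these calls set 1 array against the HT-1080 rho0 difference and do not measure how HT-29 rho0 cultures vary. Of the 23 other targets, 0 rose and 1 fell in the HT-29 rho0 control, where 457 of all 11456 genes rose and 456 fell.

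**Figure D2:**
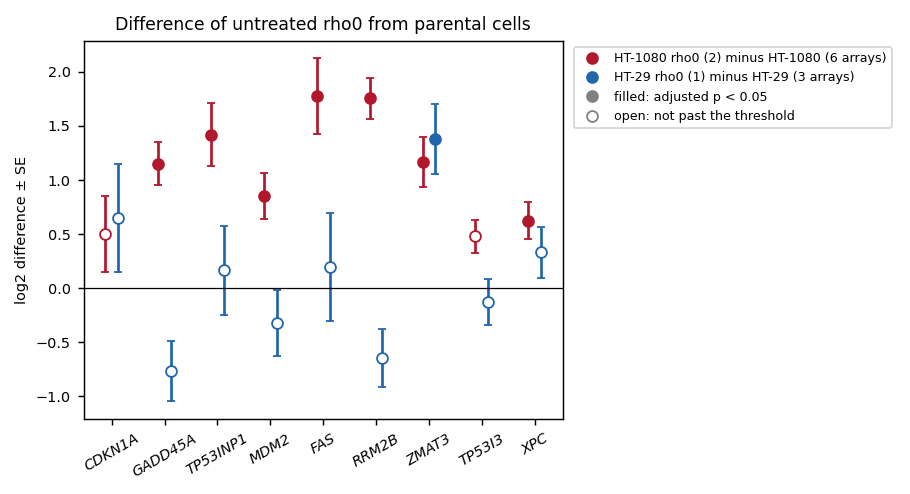
Log2 difference of untreated rho0 from parental cells with its standard error, in HT-1080 (red, 2 against 6 arrays) and HT-29 (blue, 1 against 3 arrays), filled where the adjusted p was under 0.05. The 9 red points lie above 0, 7 of them filled. Of the blue points only ZMAT3 at 1.38 is filled, and GADD45A, RRM2B, MDM2 and TP53I3 lie below 0.

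In untreated parental cells, all 9 genes were lower in HT-29 than in HT-1080, and each of the 3 HT-29 controls stood below all 6 HT-1080 controls for every one of them. Of all genes, 27.6% were separated that way and 32.4% passed the test in the lower direction. The median log2 difference was -2.27 over the 9 genes and -0.06 over all genes. CDKN1A, at 14.5, 73.5 and 28.5 in HT-29 against 282 to 448 in HT-1080, differed by -3.19 (SE 0.31, adjusted p = 4.93e-07). ZMAT3 (-2.89, SE 0.20), FAS (-2.71, SE 0.30) and GADD45A (-2.27, SE 0.17) followed. The lowest HT-29 control was at 44.7 for ZMAT3 and 28.2 for FAS, also under the filter signal, so the order of these leading genes is not firm. XPC (-1.71, SE 0.15), TP53I3 (-1.07, SE 0.13), RRM2B (-0.93, SE 0.16) and MDM2 (-0.90, SE 0.18) differed least, with adjusted p of 0.000678 for MDM2.

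TP53INP1 had signals of 3.93, 3.51 and 0.398 on the HT-29 controls and never exceeded 3.93 on any of the 9 HT-29 arrays, far below the signal of 45.5 used in the filter, so its level there is only a bound, and its difference of -2.89 (SE 0.25) depends on the offset and has no place in that order. On the same comparison 13 of 23 other p53 targets fell and 3 rose (median -0.91), with DDB2, a damage sensor of nucleotide excision repair, at -3.13 and TNFRSF10B, the death receptor DR5, at -1.92. Of the tissue markers, 6 of 6 colon epithelial genes were higher in HT-29, and 7 of 9 mesenchymal genes were lower and 1 higher. The lines differ in tissue of origin as well as in p53, and these cannot be told apart here.

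The treated arrays were set against the control that their descriptions name. GADD45A was above its control on 24 of 26 treated arrays, with a median log2 change of 1.69 and the largest value, 3.63, on HT-29 GS with VST. CDKN1A was above its control on all 5 treated HT-29 arrays and on 3 of 18 treated parental HT-1080 arrays. RRM2B was below its control on 24 of 26 arrays, by up to 1.63 with Phen and 2DG, and XPC on 20 of 26. TP53I3 stayed within -0.50 and 0.75 on every array. Many arrays share a control, so these counts are not independent.

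**Figure D3:**
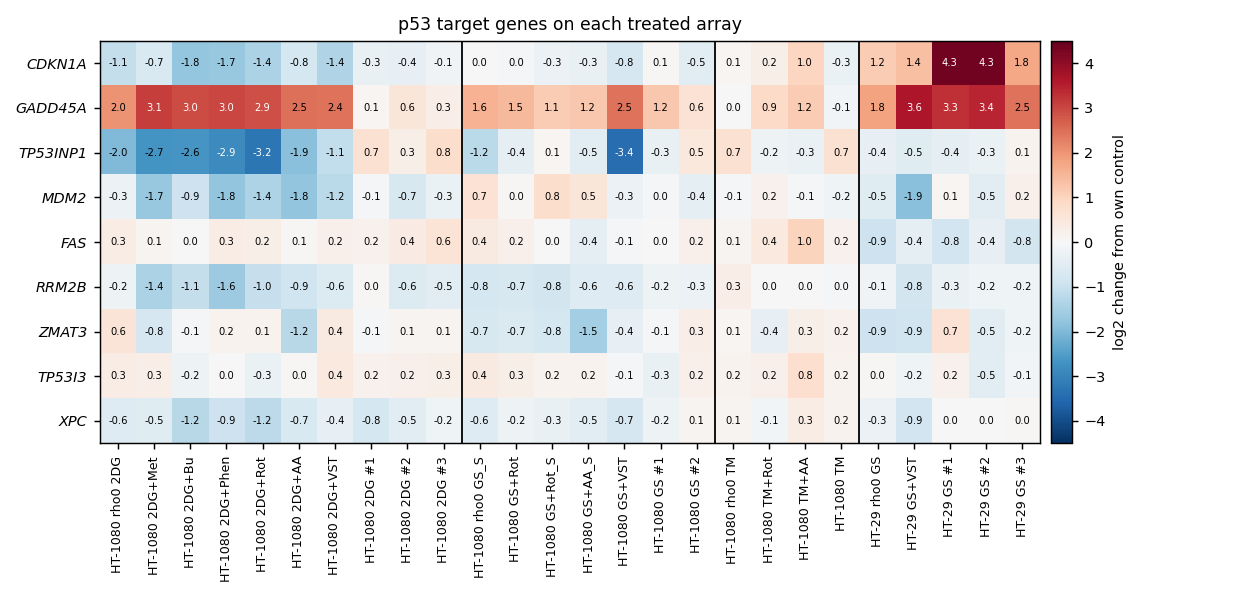
Log2 change of each p53 target on each of the 26 treated arrays from its own control, red for higher and blue for lower, with the value printed in each cell and vertical lines that part the HT-1080 stresses from each other and from HT-29. GADD45A is red in nearly every column, CDKN1A is deep red only in the HT-29 GS columns (up to 4.34), and TP53INP1 is deepest blue (-3.44) with GS and VST in HT-1080, blue in every column of 2DG with a compound and near 0 with GS and Rot or AA.

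2DG alone moved none of the 9 genes past the threshold in HT-1080, where 8.27% of all genes passed. At an unadjusted p under 0.05, FAS (0.40, SE 0.15, adjusted p = 0.123) and XPC (-0.50, SE 0.16, adjusted p = 0.0691) stood out. Both passed when only HT-1080 arrays were fitted, a fit that called 2752 of all 11456 genes, against 947 before. Of the other FAS probe sets, 204781_s_at averaged 299 with 2DG and 292 on the 6 HT-1080 controls. Averages were 426 and 324 on 215719_x_at and 205 and 148 on 216252_x_at. CDKN1A had 288, 272 and 266 on the 2DG arrays, against 364, 356 and 294 on their own controls, slightly lower on each. TP53INP1 had 93.5, 85.7 and 94.1, against 55.5, 70.4 and 51.7, higher on each (0.59, SE 0.28, adjusted p = 0.225). Of the 23 other p53 targets, SESN2, an inhibitor of mTORC1 signalling, rose by 1.32 and CCNG1, a cyclin, by 0.39, while BAX fell by 0.54. MDM4 rose by 0.75 (SE 0.14, adjusted p = 0.00814).

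Glucose starvation of HT-1080 raised GADD45A alone among the 9 genes, with 9.45% of all genes past the threshold. Its signals were 1837 and 1599.9 on the GS arrays, against 780.2 and 1026 on their controls, a log2 change of 0.93 (SE 0.22, adjusted p = 0.0244). It did not pass with either pair left out (1.23 without the second, 0.64 without the first) or without the intensity trend in the fit. CDKN1A had 292 and 224 on the GS arrays, against 282 and 319 on their controls, so that 1 array was higher and the other lower. SESN2 rose by 1.87, SESN1 fell by 0.77 and MDM4 rose by 0.70.

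Glucose starvation of HT-29 raised CDKN1A and GADD45A and lowered FAS, 3 of 9 genes where 27.1% of all genes passed. CDKN1A had 405, 1597 and 109.9 on the GS arrays, against 14.5, 73.5 and 28.5 on their controls. All 3 treated arrays lay above every control, and the first 2 (18 h) rose by 4.34 each where the third (14 h) rose by 1.76. The log2 change was 3.48 (SE 0.39, adjusted p = 0.000428), or 11.2-fold. As 2 of the 3 controls lay under the filter signal of 45.5, the size depends on the offset, with 3.67 at an offset of 1% of the trimmed mean and 2.99 at 20%. GADD45A had 1483, 2939.98 and 1000.3 on the GS arrays, against 145, 271 and 178 on their controls, a change of 3.06 (SE 0.18, adjusted p = 1.65e-05), or 8.32-fold, again smallest at 14 h.

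FAS had 13.1, 101.1 and 32.7 on the HT-29 GS arrays, against 28.2, 133 and 62.3, lower on each pair although the groups overlap. Its change of -0.68 (SE 0.15, adjusted p = 0.00740) was past the threshold only with each array set against its own control, and had an adjusted p of 0.337 without that block 0.145 with HT-29 arrays alone and 0.0530 without the first pair. MDM2, RRM2B, ZMAT3, TP53I3, XPC and TP53INP1 had changes between -0.24 and 0.01. The median over the 9 genes was -0.07, against -0.04 over all genes.

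Of the 23 other p53 targets, 6 rose and 5 fell in starved HT-29 cells. SESN2 rose by 3.53 (SE 0.35, adjusted p = 0.000295), GDF15 by 2.67 (SE 0.38, adjusted p = 0.00117), PMAIP1, the BH3-only death protein NOXA, by 2.21 (SE 0.24, adjusted p = 0.000376) and TNFRSF10B by 1.88 (SE 0.20, adjusted p = 0.000376). PLK3 and PLK2 rose by less, at 1.39 and 0.66. The 5 that fell were TRIAP1, an inhibitor of apoptosis, at -1.13 (SE 0.15, adjusted p = 0.000771), DDB2 at -1.03, SESN1 at -0.55, BAX at -0.52 and RPS27L at -0.40. GADD45B, the paralog of GADD45A, rose by 3.29 (SE 0.47, adjusted p = 0.00125). Of 12 stress transcription factors, such as ATF4 of the integrated stress response, 11 rose and 1 fell in starved HT-29 cells (median 2.00), and 7 rose and 0 fell in starved HT-1080 cells (median 0.74).

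The starvation response of HT-29 exceeded that of HT-1080 by 3.71 for CDKN1A (SE 0.62, adjusted p = 0.0267) and by 2.12 for GADD45A (SE 0.28, adjusted p = 0.0132), on a scale where 0.567% of all genes passed. These were 2 of the 9 genes, and FAS had -0.81 (SE 0.24, adjusted p = 0.175). Neither passed without the intensity trend (adjusted p = 0.0955 for CDKN1A and 0.0722 for GADD45A), a fit in which 0 of all 11456 genes passed. Calls were also lost when 1 array was left out. Without either HT-1080 GS array, which leaves 1 in that group, neither passed (3.43 and 1.83 without the second, 3.98 and 2.42 without the first, for CDKN1A and GADD45A). CDKN1A also did not pass without the first (3.27) or the second (3.28) HT-29 GS array. GADD45A was at 1000.3 to 2939.98 in starved HT-29 and 1599.9 to 1837 in starved HT-1080, so that the starved levels of the lines overlapped, whereas their controls did not. Starved CDKN1A also overlapped, at 109.9 to 1597 in HT-29 and 224 to 292 in HT-1080. In HT-29 rho0 cells starved for 14 h, CDKN1A had 127 against 53.8 on its control (1.15) and GADD45A 403 against 110.1 (1.82), beside 1.76 and 2.45 in the parental 14 h pair, with 1 array in each and no test.

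**Figure D4:**
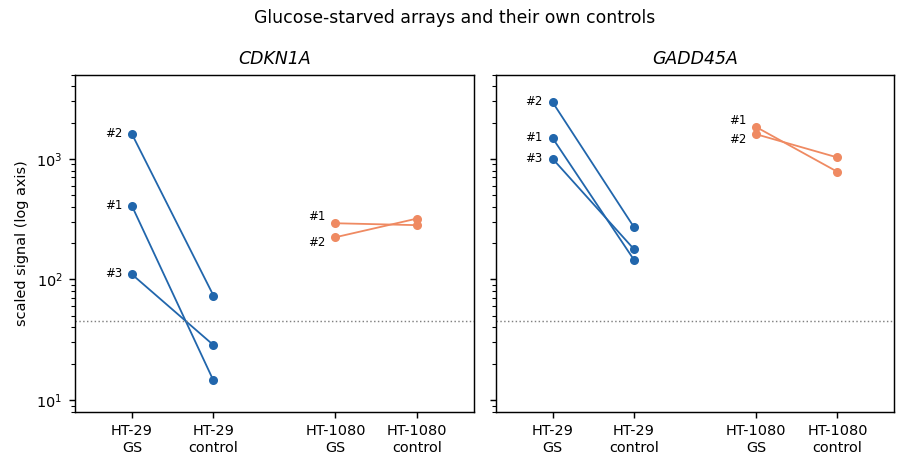
Scaled MAS5 signal (log axis) of CDKN1A and GADD45A on each glucose-starved array, joined to its own control, with replicate numbers and a dotted line at the filter signal of 45.5. All 3 HT-29 lines drop steeply towards the control for both genes, while the 2 HT-1080 lines of CDKN1A are nearly level at 224 to 319.

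Adding a respiratory inhibitor to 2DG was tested with the 5 compounds as 1 class, so that the spread between compounds counts as error. Compared with 2DG alone, GADD45A rose and TP53INP1 and RRM2B fell. MDM2 also passed, lower on the probe set that stands for it, but its probe sets went both ways, as given below. These were 4 of 9 genes where 35.0% of all genes passed. The median log2 difference was -0.52 over the 9 genes and -0.12 over all genes. Met, Bu and Phen share 1 control that no 2DG array used, and Rot, AA and the second 2DG array share another.

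GADD45A had signals of 8663 with Met, 7855 with Bu, 8241 with Phen, 6729 with Rot and 4936 with AA, against 1196, 1318 and 1104 with 2DG alone. Every compound array stood far above every 2DG array, and the log2 difference was 2.40 (SE 0.20, adjusted p = 8.16e-07). TP53INP1 had 2.39, 2.62, 1.41, 2.33 and 14.99 with the same compounds, against 93.5, 85.7 and 94.1 with 2DG alone. The 5 compound arrays were all under the filter signal of 45.5 and the 2DG arrays all above it, and the difference of -3.10 (SE 0.38, adjusted p = 1.65e-05) depends on the offset added before the log. The doses of the 3 biguanides differ, from 100 µM for Phen to 10 mM for Met, and with 1 array each they were not compared.

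RRM2B had 111 with Met, 142 with Bu, 94.9 with Phen, 117 with Rot and 131 with AA, against 302, 158 and 146 with 2DG alone. The compound arrays were all lower, but the first 2DG array stood far above the other 2, and the change of -0.65 (SE 0.21, adjusted p = 0.0195) was lost without that array (-0.50), with quantile normalization and with Rot and AA alone. CDKN1A had 275, 129, 133, 131 and 201, against 288, 272 and 266 with 2DG alone, overlapping through the Met array (-0.88, SE 0.43, adjusted p = 0.124). FAS (-0.24), TP53I3 (-0.31), XPC (-0.43) and ZMAT3 (-0.52) did not pass on the probe sets that stand for them. Other ZMAT3 probe sets were lower with every inhibitor, 227221_at (87.3 to 155 against 249 to 286) and 219628_at (172 to 398 against 411 to 554). On 225725_at and 1555609_a_at of ZMAT3 the arrays overlapped. FAS 204781_s_at was also separated (186 to 233 against 269 to 350), while 215719_x_at and 216252_x_at of FAS overlapped. With the deposited scaling kept, which moved the median of all genes to -0.48, 8 of the 9 passed, all but ZMAT3, GADD45A higher and 7 lower. That setting called 5030 of all 11456 genes, against 4011 before.

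The 23 other p53 targets split when an inhibitor was added to 2DG, with 5 higher and 6 lower and a median of 0.02. PLK2, a polo-like kinase, rose by 1.54 (SE 0.23, adjusted p = 9.52e-05) and PMAIP1 by 1.33 (SE 0.30, adjusted p = 0.00245). PIDD1, an adaptor that activates caspase-2, had -1.92 (SE 0.47, adjusted p = 0.00417) and TNFRSF10B had -1.08 (SE 0.20, adjusted p = 0.000503).

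MDM2 had a difference of -1.06 (SE 0.24, adjusted p = 0.00221) on the probe set that stands for it, 229711_s_at, with signals of 177, 309.9, 169, 244 and 186 against 565, 393 and 481 with 2DG alone. Its probe sets disagreed. Of the 8 with measurable signal, 229711_s_at, 225160_x_at, 217542_at and 238733_at fell, by 0.93 to 1.87, and 205386_s_at, 211832_s_at and 217373_x_at rose, by 1.83 to 2.40. The probe set 238733_at was under the filter signal on every array with an inhibitor or 2DG alone (at most 34.4), as was 217542_at on the inhibitor arrays (at most 41.1), so the size of those falls rests on signals near the floor. The probe set 211832_s_at was at most 29.7 with 2DG alone and reached the filter signal only on compound arrays and stressed rho0 arrays, so it counts as measurable only through the arrays where it is high. The eighth, 244616_x_at, had -0.28 (SE 0.27, adjusted p = 0.458). The probe set 217373_x_at averaged 386 ± 179 on the 5 inhibitor arrays and 58.3 ± 21.0 on the 3 arrays of 2DG alone (SD; difference 2.40, SE 0.39, adjusted p = 0.000168). On the same arrays 229711_s_at averaged 217 ± 59.6 with an inhibitor and 479.8 ± 85.7 with 2DG alone (SD).

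The 3 rising probe sets, which were near or under the filter signal in controls, also rose when Rot or AA was added to GS (1.63 to 2.71). They rose with VST on the mean over both lines (1.45 to 2.15). In HT-1080 with 2DG, 205386_s_at, 211832_s_at and 217373_x_at had 257, 127 and 385 with VST and averaged 37.6, 22.9 and 58.3 without. In HT-29 with GS they had 30.7, 1.30 and 49.4 with VST and averaged 34.9, 7.07 and 23.0 without, so only 217373_x_at was higher there. In HT-1080 rho0 cells with 2DG, 217373_x_at stood at 897, against 85.9 and 96.3 on the 2 rho0 controls. Under 2DG alone or HT-29 GS none of the 3 passed the test. The part of the MDM2 transcript that each probe set reads was not analysed here, an x in the name marks probes that may also bind other transcripts, and the mean of all MDM2 probe sets gave a difference of 0.12. A direction of MDM2 under the compounds therefore cannot be given. In the rho0 controls the 8 probe sets had differences of 0.47 to 2.17, and 229711_s_at, 225160_x_at and 238733_at passed.

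**Figure D5:**
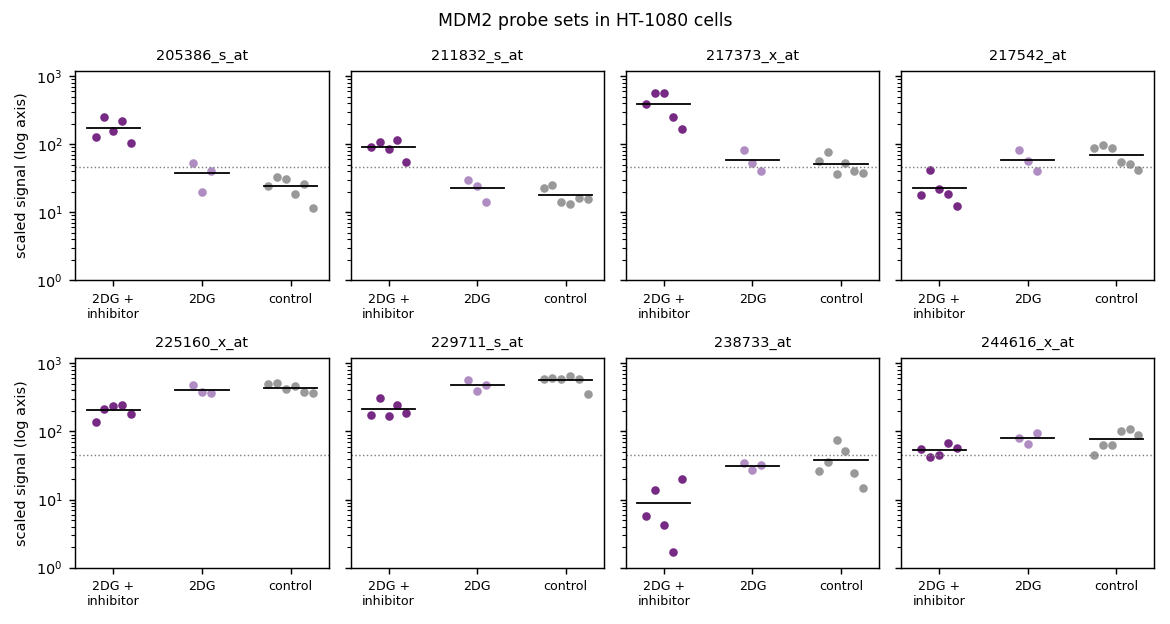
Scaled MAS5 signal (log axis) of the 8 MDM2 probe sets with measurable signal in HT-1080 cells with 2DG and 1 of 5 inhibitors, 2DG alone or no treatment, 1 point per array, with a bar at the group mean and a dotted line at 45.5. Probe sets 205386_s_at, 211832_s_at and 217373_x_at are higher with the inhibitors, while 229711_s_at and 225160_x_at are lower.

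Adding VST to stress was tested as the mean over 2DG in HT-1080, GS in HT-1080 and GS in HT-29, with 1 VST array in each. GADD45A rose (1.32, SE 0.18, adjusted p = 0.000232) and TP53INP1 (-1.74, SE 0.29, adjusted p = 0.000650), CDKN1A (-1.43, SE 0.39, adjusted p = 0.0130) and XPC (-0.45, SE 0.16, adjusted p = 0.0396) fell. MDM2 passed with -0.95 (SE 0.18, adjusted p = 0.00151) on 229711_s_at, while 3 of its other probe sets rose. These were 5 of 9 genes where 39.3% of all genes passed. XPC lost the call with an offset of 20% of the trimmed mean, without the filter, with quantile normalization and without any 1 of several arrays, and CDKN1A without the first HT-1080 GS array (adjusted p = 0.0703). With the deposited scaling kept, RRM2B (-0.77, adjusted p = 0.00448, against -0.38 and 0.0881 before) and ZMAT3 (-0.79, adjusted p = 0.00695, against -0.42 and 0.117 before) passed as well. Of the 23 other p53 targets, 5 rose and 5 fell with VST, among them GDF15 at 1.17 (SE 0.38, adjusted p = 0.0295) and TNFRSF10B at -1.37 (SE 0.20, adjusted p = 0.000370).

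CDKN1A had 46.4 on the HT-29 array with GS and VST, against 405, 1597 and 109.9 with GS alone, below each of them and 1.37 above its own control on the log2 scale. In HT-1080 it had 171 with 2DG and VST, against 288, 272 and 266 with 2DG alone, and 164 with GS and VST, against 292 and 224 with GS alone. GADD45A had 5533 with 2DG and VST, against 1196, 1318 and 1104, and 4316 with GS and VST, against 1837 and 1599.9. In HT-29 it had 1859.9 with GS and VST, inside the range of 1000.3 to 2939.98 with GS alone. TP53INP1 was at 18.3 and 1.55 on the HT-1080 VST arrays, under the filter signal, against 85.7 to 94.1 with 2DG and 56.1 on both GS arrays. XPC had 273 with 2DG and VST, against 210 to 262 with 2DG alone, so it was not lower there. With GS and VST it had 181 in HT-1080, against 264 and 378 with GS alone. In HT-29 it had 41.6 with GS and VST, against 82.0 to 128 with GS alone.

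Adding Rot or AA to GS in HT-1080, on arrays that include floating cells, lowered ZMAT3 (-1.37, SE 0.43, adjusted p = 0.0234). MDM2 passed with 1.00 (SE 0.28, adjusted p = 0.0138) on 229711_s_at, but no direction is given for the gene because 244616_x_at fell by 1.34. These were 2 of 9 genes where 26.6% of all genes passed. ZMAT3 had 267 with Rot and 156 with AA, against 491 and 572 with GS alone. MDM2 had 619.7 and 519, against 576 and 262, so its arrays overlapped. Both calls were lost without the second GS array, where MDM2 had 0.70 and ZMAT3 had -1.08. That of ZMAT3 was also lost without the AA array (-0.99), and that of MDM2 with the deposited scaling (0.61), without the block for own controls (0.54), without the Rot array (0.87) and with the Rot array that lacks floating cells in its place (0.62, adjusted p = 0.135). With the deposited scaling, FAS (-0.77), RRM2B (-0.80) and XPC (-0.84) passed beside ZMAT3, where 4098 of all 11456 genes passed, against 3053 before. GADD45A had 2275 and 2398, against 1837 and 1599.9 (0.40, SE 0.24, adjusted p = 0.232), a smaller step than the inhibitors gave with 2DG, a difference that was not tested. GS with Rot without floating cells gave 2854 for GADD45A, 293 for ZMAT3 and 366 for MDM2, the last inside the range of GS alone. Of the 23 other p53 targets, 2 rose, RPS27L at 1.07 and BAX at 0.59, and 4 fell, with SESN2 at -3.21 (SE 0.64, adjusted p = 0.00111).

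In HT-1080 rho0 cells the stress response minus the parental one, averaged over 2DG, GS and TM, passed for none of the 9 genes, where 1.05% of all genes passed. At an unadjusted p under 0.05, GADD45A (0.76, SE 0.26, adjusted p = 0.166) and TP53INP1 (-1.22, SE 0.41, adjusted p = 0.159) stood out. Both passed when only HT-1080 arrays were fitted, a fit that called 1288 of all 11456 genes, against 120 before. GADD45A reached 9474 in rho0 cells with 2DG, the highest signal of any array, and 5631 with GS, against 1104 to 1318 and 1599.9 to 1837 in parental cells. TP53INP1 was at 36.1 with 2DG and 60.9 with GS, against 162 and 149.9 on the rho0 controls. FAS remained at 1550.4 to 2075 on the 3 treated rho0 arrays and was at 303 to 804 on the 18 treated parental arrays. RRM2B was at 512 to 1102 on treated rho0 arrays and 94.9 to 302 on treated parental arrays, again without overlap. MDM2, on the probe set that stands for it, was also separated, at 736 to 1789 against 169 to 619.7. So was ZMAT3, at 652 to 1342 against 156 to 572. CDKN1A, GADD45A, TP53INP1, TP53I3 and XPC overlapped. All 9 genes were already separated in the untreated controls, and the share of all genes separated on treated arrays was not counted.

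TM had 1 array per group and no test of its own. In parental HT-1080 with TM alone, GADD45A was at 947 against 1026 on its control (-0.12) and CDKN1A at 258 against 319 (-0.30). With TM and AA, CDKN1A was at 633 (0.98), GADD45A at 2293 (1.16) and FAS at 804 (0.99), each above the array with TM alone, and TP53INP1 was at 30.4 against 38.5 on the control. With TM and Rot, GADD45A was at 1862 (0.86) and CDKN1A at 380.4 (0.25). In rho0 cells with TM, TP53INP1 was at 245 against 149.9 on the control (0.69), while GADD45A, at 1876 against 1902, hardly moved.

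The pattern of CDKN1A over the 26 treated arrays was most like that of TNFRSF10B, whose log2 changes had a Pearson correlation of 0.90 with it, followed by TULP3 (0.88), ZBTB21 (0.84), APOBEC3B (0.84) and FRMD4B (0.84). The arrays share controls, and the HT-29 GS arrays weigh heavily in each value.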

How the data were processed

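The authors deposited 1 table of linear intensity values for 38 arrays, made with MAS5 per the submitters' processing notes. MAS5's version is not given in the sources used here. Each array was multiplied to a common 2% trimmed mean, 5.69 (5% of it) was added, and log2 was taken, which understates changes of low signals. Of 54675 probe sets, 41097 carried 1 gene symbol, 1801 several and 11777 none. Only the first kind named genes, and 232 with a missing value were left out. Genes needed a signal of 45.5 (40% of the trimmed mean) on at least 2 arrays, and the probe set with the highest mean stood for its gene.

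limma 3.58.1 in R 4.3.3 was used for every adjusted p (lmFit, eBayes with an intensity trend, Benjamini-Hochberg over 11456 genes, two-sided, threshold 0.05). Stress effects were fitted with a block for each described control, which pairs treated and control arrays, and a group with a single array took its spread from the groups with several. Compounds were fitted as classes, and untreated cells among the 12 controls. Scripts were tested on simulated data.

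All 10 genes are named by rule. These genes, the gene lists (26 other p53 targets, 14 p53 relatives and regulators, 12 paralogs, 12 stress transcription factors, tissue markers) and the tests were chosen with earlier results of these data known. The line difference of the rho0 effect and the test of each further probe set were added after seeing the data. Alternatives were other offsets, filters, scalings, probe set summaries and blocks, no intensity trend, 1 line alone, other compound classes and leaving out each array.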

Additional observations from a re-analysis of the deposited data

Results flagged for a closer look

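MDM2 (229711_s_at) had 1 HT-1080 control, the sixth, far below the other 5, with a signal of 355 against 590.5 to 649. The gap was 0.843 of the whole range, above Dixon's critical value for 6 arrays. Chance flags about 1 in 20 groups, and 9 genes were examined. That control is the one against which the second GS array, the GS arrays with Rot or AA and the parental TM arrays were set. Without it, MDM2 passed the test for the line difference of the rho0 effect (1.05, adjusted p = 0.0471 by limma).

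The test of the difference between the lines passed in 2 comparisons. The starvation response of HT-29 minus that of HT-1080 was 3.71 for CDKN1A and 2.12 for GADD45A. The rho0 difference of untreated HT-1080 minus that of untreated HT-29 was 2.40 for RRM2B and 1.92 for GADD45A, with 1 HT-29 rho0 array behind it, whose spread was taken from the other controls. The causes were not tested.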

How the results depend on the processing

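Outside the fits that leave out 1 array, 1004 gene values kept direction and call, 22 passed the test newly, 16 lost it and 2 turned: with the mean of all probe sets MDM2 had 0.12 for inhibitors with 2DG and 0.17 for VST. Of the 9 genes, the deposited scaling called 8 for inhibitors with 2DG (4 before), 4 for Rot or AA with GS (2 before) and 2 for HT-29 rho0 controls (1 before). Over all genes it called 5030, 4098 and 1227, against 4011, 3053 and 913 before. Quantile normalization called 0 for HT-29 rho0 controls, and 823 over all genes. Without the intensity trend 0 passed for HT-1080 GS (1 before) and 0 for the line difference of GS (2 before). Over all genes 449 and 0 passed in these fits, against 1083 and 65 before. The alternative with no replicate block gave 1 for Rot or AA with GS (2 before). Over all genes it gave 2756 calls there (3053 before) and 1865 calls for HT-29 GS, against 3104 with each array paired to its control. With 1 line alone, 2 passed for 2DG, 2 for the rho0 stress response (0 before for both) and 0 for HT-29 rho0 controls. Those fits called 2752, 1288 and 10 of all 11456 genes, against 947, 120 and 913 before. GS with Rot in place of its floating-cell array gave 1, with 2821 calls over all genes (3053 before). Leaving out 1 array in turn gave 0 for 2DG, HT-1080 GS and the rho0 stress response, 2 to 3 for HT-29 GS, 0 to 2 for its line difference, 9 for untreated HT-29 against HT-1080, 3 to 4 for inhibitors with 2DG, 2 to 7 for HT-1080 rho0 controls, 0 to 2 for HT-29 rho0 controls, 2 to 3 for their line difference, 0 to 2 for Rot or AA with GS and 3 to 6 for VST. The causes were not tested, though each left-out array also leaves fewer samples and the calls over all genes moved as well. Over all genes, leaving out 1 array gave 81 to 223 calls for 2DG (947 before) and 1189 to 4184 for HT-29 GS (3104 before). It gave 1939 to 4059 for inhibitors with 2DG (4011 before) and 6285 to 6814 for untreated HT-29 against HT-1080. These ranges are not given for the other comparisons, where fits leave 1 array in a group. Signals below 45.5, such as TP53INP1 with the compounds, give only a bound.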
